A study of Mus musculus with 18 samples.

Results

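The comparison set wild type (WT) bone marrow-derived macrophages given monosodium urate (MSU) crystals together with apigenin (WT + MSU + apigenin) against non-treated WT macrophages (WT non-treated), with 3 libraries in each group and 6 of the 18 libraries of the study in all. It asks which genes sat at the resting level when both agents were present, which stayed displaced in the direction that MSU alone moved them, and which lay on the other side of the resting level. Every gene with at least 1 FPKM in at least 3 of the 18 libraries was followed, 12025 of the 55450 genes in the table. The paper places the mice, of either sex, on the C57BL6/J background. The macrophages were grown from marrow in L929-conditioned medium. Priming, common to both groups, was 24 h of GM-CSF (20 ng/ml). The combination was then given for 6 h, with MSU at 0.2 mg/ml and apigenin at 25 µM, while the non-treated cells received neither. WT + MSU, WT + apigenin, CD38KO + MSU and CD38KO non-treated, with 3 libraries each and the same priming, are used only to place the result. The titles and the treatment tags of the 6 apigenin libraries disagree on the presence of MSU. Groups here follow the titles. Under the tags the apigenin groups with and without MSU change places, so the values given for apigenin alone would be those of the combination. Class counts under the tags are given near the end.

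MSU crystals form in the joints in gout, where resident and recruited macrophages take them up, start transcription of cytokine and chemokine genes and assemble the NLRP3 inflammasome, which activates caspase-1 and releases IL-1β. CD38 is an enzyme that consumes NAD, a cofactor that sirtuins need, and macrophages raise it when they are activated. Apigenin is a plant flavonoid known to inhibit CD38, and flavonoids of this class also act on kinases and other enzymes.

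Total counts lay between 51058336 and 76708083 in the WT + MSU + apigenin libraries, against 64442926 to 75322278 in the WT non-treated libraries. Mitochondrially encoded genes accounted for 11.1 to 13.3% of counts with the combination and for 4.57 to 6.61% in non-treated cells. The 20 most abundant genes took 26.9 to 29.7% of the counts with the combination and 16 to 17.2% in non-treated cells, and the TMM factors, which scale each library on the bulk of its genes, were 0.67 to 0.758 and 1.16 to 1.31. Levels are given as CPM, the counts scaled to a fixed library total, with TMM factors applied. The libraries of a group were not uniform in origin, since Xist, transcribed from the inactive X chromosome, was at 56.5, 0.166 and 83.4 CPM with the combination and at 0, 0.162 and 53.8 CPM in non-treated cells. It was at 67.4, 0.118 and 74.2 CPM with MSU alone and at 0.073, 0.289 and 69.6 CPM with apigenin alone. Replicate 1 thus held Xist in the groups with MSU and almost none in the groups without MSU. The part of this imbalance in the results was not tested. In some genes replicate 3 stood apart in every WT group. Over all genes tested this was not so in WT + MSU, where log2 CPM correlated at 0.9646 between replicates 1 and 2 and at 0.9616 between replicates 1 and 3. Ifi202b, an interferon-inducible gene whose level is known to differ between mouse strains, was at 8.04, 43.1 and 0.195 CPM with the combination, at 135, 152 and 0 CPM with MSU alone, at 42.2, 35.2 and 0.0721 CPM with apigenin alone and at 112, 68.1 and 0 CPM in non-treated cells. The neutrophil granule gene Ngp was likewise at 28.9, 85.6 and 0.584 CPM with the combination and at 45.4, 44.5 and 0.441 CPM in non-treated cells, and the collagen gene Col1a1 at 2290, 3210 and 718 CPM with the combination and at 919, 1160 and 207 CPM in non-treated cells. With replicates 1 and 2 of the WT groups alone, 1719 genes were higher and 2898 lower with the combination, and the part of this difference in single genes is given below where leaving out a replicate 3 library changed a value. Nnt, also picked after its values were seen, had no count in the WT groups without MSU. Its means were 19.8 CPM with the combination and 15.6 CPM with MSU alone. Whether the genetic background of the mice differed between libraries or groups was not tested. Replicates are separate samples by their labels, and p-values measure only the spread between these samples, which may be partly technical. Bulk RNA cannot tell fewer cells of a type from less RNA per cell.

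Macrophage marker genes were abundant in both groups, and their summed level over 8 genes was 47400 to 60600 CPM with the combination and 18800 to 22800 CPM in non-treated cells. Most of each sum was Lyz2, and 4 of the 8 markers were not called different between the groups. Lyz2, which encodes lysozyme, was at 51880, 49400 and 37590 CPM with the combination and at 17720, 16470 and 14050 CPM in non-treated cells, with no overlap. Of the markers of other cells, the 6 fibroblast genes summed to 1820 to 6670 CPM with the combination and 571 to 2630 CPM in non-treated cells, and the 5 endothelial genes to 29.8 to 121 and 12.8 to 46.6 CPM. The 8 neutrophil genes summed to 20.3 to 333 CPM with the combination and 8.4 to 196 CPM in non-treated cells, with 1 of the 8 at 0 in each group. Dendritic cell genes (6) summed to 4.36 to 28.4 CPM with the combination and 5.8 to 7.77 CPM in non-treated cells. B and T cell genes summed to at most 4.09 CPM with the combination and at most 0.0464 CPM in non-treated cells, with 5 of 6 at 0 in both groups. The part of other cell types in the results was not tested.

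The combination moved a large part of the measured transcriptome. A gene was called changed when edgeR's quasi-likelihood test gave a Benjamini-Hochberg adjusted p under 0.05 and the fold change was at least 2. By this rule 1711 of 12025 genes (14.2%) were higher in WT + MSU + apigenin than in WT non-treated, and 2934 (24.4%) were lower. MSU alone, against the same non-treated libraries, called 244 genes higher (2.03%) and 186 lower (1.55%), and apigenin alone called 1573 higher (13.1%) and 2664 lower (22.2%). Of the genes called with the combination, 1683 higher and 2790 lower genes were not called with MSU alone. Between the combination and apigenin alone, 2 genes were higher (0.0166%) and 5 were lower (0.0416%).

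How many genes counted as higher depended on the scaling. With TMM factors the median log2 fold change over all genes was -0.0484, and with DESeq2-type RLE factors it was 0.0382. With library totals and no further factors it was -0.848, so that the same libraries gave 152 genes higher and 4976 lower (2.96% of the calls were higher, against 36.8% with TMM factors). All 2934 genes called lower with TMM factors remained called lower with library totals, while 152 of the 1711 called higher remained called higher. No gene called with TMM factors was called in the opposite direction with library totals or with RLE factors. Changes below are therefore changes relative to the bulk of the genes of the same library, and genes described as higher are those that stood above that bulk.

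The 244 genes that MSU alone raised were sorted by where the combination left them. A gene was left raised when it was still called higher than non-treated, overshot when it was called lower, and returned when the 95% interval of its log2 fold change lay wholly within a 2-fold change either way. The remainder were undecided, since the interval of 3 against 3 libraries was too wide to place them. Both comparisons use the same non-treated libraries, so a chance deviation of those libraries enters both. By this sorting 23 genes (9.43%) were left raised, 64 (26.2%) overshot, 54 (22.1%) returned and 103 (42.2%) were undecided, and 91 of the undecided genes had an estimate within 2-fold of non-treated. Over all 12025 genes, 14.2% were called higher, 24.4% lower and 21.3% had an interval within 2-fold. The shares of overshot and returned genes thus lay near those of all genes. The share of left raised genes lay below that of all genes with TMM factors and above it with library totals (4.89%, where 152 of 12025 genes were higher), and it ranged from 7.92 to 15.3% when 1 library was left out. With library totals 184 genes were raised by MSU, and 9 were left raised, 23 returned and 43.5% overshot. All 9 were among the 23 left raised with TMM factors, 46 of the 64 overshot genes stayed overshot, and 5 of the 54 returned genes stayed returned.

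**Figure D1:**
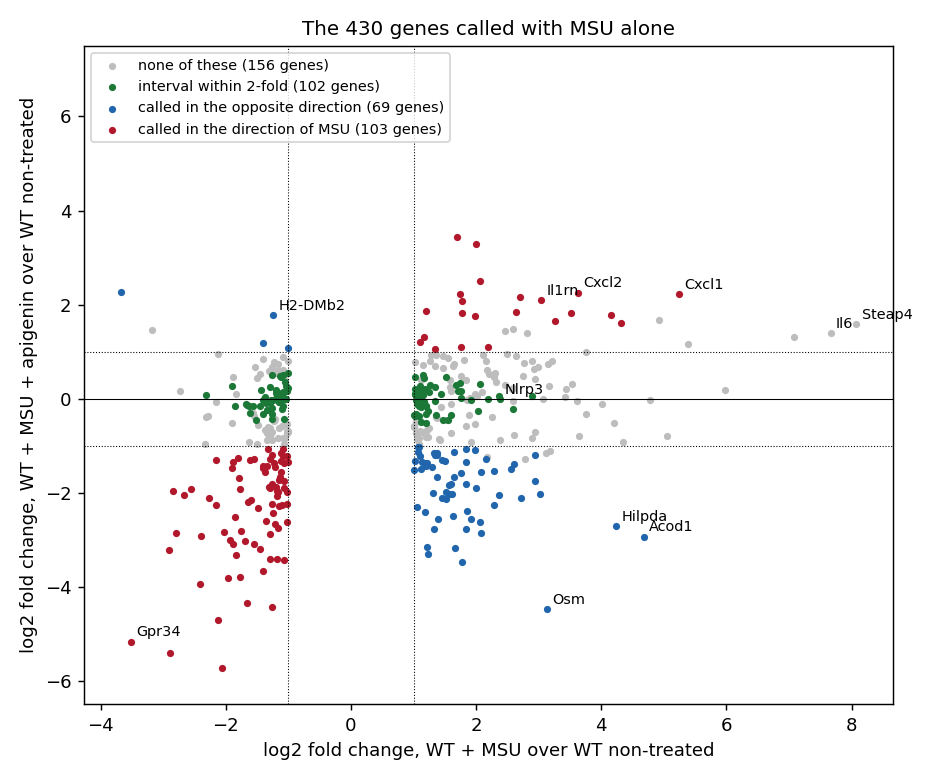
Each point is a gene called with MSU alone, with its log2 fold change in WT + MSU against WT non-treated on the x axis and in WT + MSU + apigenin against WT non-treated on the y axis, coloured by whether the combination was called in the direction of MSU (103 genes), in the opposite direction (69), lay within 2-fold (102) or none of these (156). The 23 left raised genes lie above the resting level, the 64 overshot genes lie below it at the right, and 3 genes with very large fitted values (Chac1, Colec11 and Csf2) are not drawn.

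The left raised genes included 3 neutrophil-attracting chemokines. Cxcl1 was at 5.43, 19.1 and 11.8 CPM with the combination, at 60.8, 182 and 52.3 CPM with MSU alone, and at 2.91, 3.71 and 1.16 CPM in non-treated cells. The combination libraries all lay above the non-treated ones and below those with MSU alone, and against non-treated cells the log2 fold change was 2.22 ± 0.55 (SE), adjusted p = 0.00368. Cxcl3, a ligand of the same receptor, was at 8.02, 16.6 and 17.8 CPM with the combination, at 66.8, 92.7 and 120 CPM with MSU alone and at 5.81, 3.88 and 4.33 CPM in non-treated cells, a log2 fold change of 1.60 ± 0.41 for the combination (adjusted p = 0.00475). Cxcl2 was at 110, 134 and 584 CPM with the combination and at 46.1, 40.4 and 86.8 CPM in non-treated cells, a log2 fold change of 2.26 ± 0.71 (adjusted p = 0.0147). The Cxcl2 groups did not overlap, but the third combination library was far above the other 2, and without it the log2 fold change was 1.08 with adjusted p = 0.158. Without non-treated replicate 1 or 2 the adjusted p for Cxcl2 was 0.0535 and 0.0576.

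These 3 genes lie on chromosome 5, and their upstream sequences are shown because the windows of all 3 hold the motif that NF-κB proteins bind. Each line gives the 250 bases before the RefSeq transcription start on the plus strand of GRCm38.p6, 5′ to 3′, with matches to the κB motif (GGG, any 2 bases, then TTTCC) on either strand in capitals.
Cxcl1: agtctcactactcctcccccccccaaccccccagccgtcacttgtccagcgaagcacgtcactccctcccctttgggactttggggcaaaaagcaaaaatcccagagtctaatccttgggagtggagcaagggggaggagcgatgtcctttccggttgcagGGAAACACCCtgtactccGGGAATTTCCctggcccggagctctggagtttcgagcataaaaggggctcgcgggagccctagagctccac
Cxcl2: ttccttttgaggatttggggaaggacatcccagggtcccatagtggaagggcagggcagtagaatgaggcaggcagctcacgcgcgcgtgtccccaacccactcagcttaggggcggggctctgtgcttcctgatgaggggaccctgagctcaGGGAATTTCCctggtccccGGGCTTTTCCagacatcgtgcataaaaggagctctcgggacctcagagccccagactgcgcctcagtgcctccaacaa
Cxcl3: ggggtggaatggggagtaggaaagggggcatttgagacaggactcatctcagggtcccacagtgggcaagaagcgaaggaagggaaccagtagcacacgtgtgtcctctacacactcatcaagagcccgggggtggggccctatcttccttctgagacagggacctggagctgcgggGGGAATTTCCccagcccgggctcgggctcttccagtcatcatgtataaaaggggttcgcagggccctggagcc

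The windows run over chr5:90890995-90891244 for Cxcl1, chr5:90903649-90903898 for Cxcl2 and chr5:90785851-90786100 for Cxcl3. Cxcl1 and Cxcl2 hold 2 matches each, at 89 to 80 and 71 to 62 bases before the start of Cxcl1 and at 97 to 88 and 78 to 69 bases before the start of Cxcl2, and Cxcl3 holds 1 at 73 to 64 bases. Over RefSeq windows 250 bases before to 50 after the start, the motif was found in 535 of 32851 windows of the genome (1.63%) and in 183 of 10579 windows of the genes tested (1.73%). It was found in 5 of 18 windows of the left raised genes (27.8%), of which 2 were overlapping windows of Il1rn, in 1 of 55 windows of the overshot genes (1.82%), in 3 of 49 of the returned genes (6.12%) and in 7 of 102 of the undecided genes (6.86%). Windows of all genes called higher with the combination held it in 1.73% and of those called lower in 1.79%. The AP-1 motif (TGA, any base, then TCA), read on both strands, was found in 4 of 18 windows of left raised genes (22.2%). It was found in 19 of 102 windows of undecided genes (18.6%), a similar share. Overshot genes held it in 3 of 55 windows (5.45%), returned genes in 4 of 49 (8.16%) and all genes tested in 5.2%. A match of these letters is a description and does not show that a factor bound there.

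Outside the chemokines, the left raised genes were varied in function. Il1rn, which encodes the IL-1 receptor antagonist, was at 117, 109 and 152 CPM with the combination, at 200, 247 and 283 CPM with MSU alone and at 37.8, 27.5 and 23.2 CPM in non-treated cells. It rose with the combination by a log2 fold change of 2.09 ± 0.33 (adjusted p = 0.000113), with no overlap, and remained called with library totals. Under the treatment tags Il1rn was not called higher. Tgm2, a transglutaminase, was at 56.8, 48.5 and 88.6 CPM with the combination, at 280, 329 and 393 CPM with MSU alone and at 13.3, 20 and 23.1 CPM in non-treated cells, a log2 fold change of 1.78 ± 0.40 (adjusted p = 0.00191). The immediate early gene Fosb, an AP-1 subunit, was at 2.66, 3.3 and 2.28 CPM with the combination and at 0.986, 0.819 and 0.51 CPM in non-treated cells (log2 fold change 1.83 ± 0.37, adjusted p = 0.000764). Nr4a1, an orphan nuclear receptor of the early response, was at 2.15, 5.05 and 16.9 CPM with the combination and at 2.25, 2.53 and 2.84 CPM in non-treated cells. Its groups overlapped, and the log2 fold change of 1.66 ± 0.56 (adjusted p = 0.021) became 0.51 with adjusted p = 0.338 without combination replicate 3, and the adjusted p was 0.0653 and 0.0562 without non-treated replicate 1 or 2. Csf2, which encodes GM-CSF, was at 0.887, 0 and 1.87 CPM with the combination and at 0 in all non-treated libraries, so the groups met at 0 and the mean was at least 82.1-fold higher against a floor of 3 counts over the group.

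Metallothionein stood apart within this class, because it was higher with the combination than with MSU alone. Mt2, a metal-binding protein gene chosen after its values were seen, was at 251, 194 and 210 CPM with the combination, at 80.5, 130 and 58.8 CPM with MSU alone, at 90.5, 66.9 and 79.3 CPM with apigenin alone and at 19.3, 20.5 and 27.2 CPM in non-treated cells. The combination lay above every other WT library, with log2 fold changes of 3.29 ± 0.31 against non-treated (adjusted p = 1.68e-06) and 1.29 ± 0.29 against MSU alone (adjusted p = 0.00161). Gm45774, annotated on the opposite strand and overlapping Mt2, was at 22.5, 27.1 and 27.1 CPM with the combination and 1.78, 1.76 and 3.56 CPM in non-treated cells (log2 fold change 3.43 ± 0.36, adjusted p = 4.33e-06), and with no strand setting stated for the counting, its reads cannot be told apart from those of Mt2. Odc1, the first enzyme of polyamine synthesis and also chosen afterwards, was at 221, 201 and 199 CPM with the combination and at 57, 59.4 and 60.1 CPM in non-treated cells, a level that MSU alone (156 to 265 CPM) and apigenin alone (201 to 242 CPM) also reached. Of the 23 left raised genes, 13 were called higher with apigenin alone.

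The 64 overshot genes were raised by MSU and fell below the resting level with the combination. Their median log2 fold change was -1.78 with the combination, 1.6 with MSU alone and -1.66 with apigenin alone, all against non-treated cells, and 56 of the 64 were called lower with apigenin alone. Acod1, which makes the antimicrobial metabolite itaconate, was at 5.06, 2.45 and 2.84 CPM with the combination, at 809, 501 and 711 CPM with MSU alone and at 42.8, 17.1 and 19 CPM in non-treated cells. No library overlapped between groups, and the log2 fold change of the combination against non-treated cells was -2.93 ± 0.82 (adjusted p = 0.00767). Osm, which encodes the cytokine oncostatin M, was at 0.484, 0.623 and 1.71 CPM with the combination, at 103, 208 and 246 CPM with MSU alone and at 12.9, 17.2 and 33.5 CPM in non-treated cells, a log2 fold change of -4.48 ± 0.62 (adjusted p = 3.96e-05), or -5.25 without combination replicate 3. Hilpda, a lipid droplet protein gene induced by hypoxia, was at 1.34, 0.831 and 1.63 CPM with the combination and at 7.01, 6.93 and 11.2 CPM in non-treated cells, with 72.4, 172 and 228 CPM under MSU alone (log2 fold change -2.72 ± 0.44, adjusted p = 0.000149). Vegfa, the angiogenic growth factor gene, fell by 1.20 ± 0.31 on the log2 scale with the combination (adjusted p = 0.00476), to 16, 12.8 and 18.6 CPM, against 35.5, 45.6 and 27.8 CPM in non-treated cells.

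Other overshot genes differed in function. Dusp5, which dephosphorylates ERK, had a log2 fold change of -2.03 ± 0.51 (adjusted p = 0.00404) and the stress kinase gene Plk3 of -1.75 ± 0.43 (adjusted p = 0.00327), and in neither did the groups overlap. Sqstm1, which encodes the autophagy receptor p62, was at 190, 196 and 246 CPM with the combination, at 2453, 2518 and 2194 CPM with MSU alone and at 817, 799 and 874 CPM in non-treated cells (log2 fold change -1.98 ± 0.18, adjusted p = 1.31e-06). Txnrd1, thioredoxin reductase, and Hmox1, the haem-degrading enzyme, had log2 fold changes of -1.81 ± 0.47 and -1.07 ± 0.21, although Hmox1 came to -0.89 and lost its call without non-treated replicate 3. Flrt3 (log2 fold change -2.11 ± 0.69, adjusted p = 0.0182) had overlapping groups and lost its call without combination replicate 1 or 2 (adjusted p = 0.0693 and 0.0699) or non-treated replicate 1 or 2 (0.0563 and 0.05). Without combination replicate 3, the Txnrd1 value was -2.51 and that of Flrt3 -2.99. Chac1, which degrades glutathione, was at 0 in all 3 combination libraries and at 2.33, 2.6 and 1.6 CPM in non-treated cells, at least 99.3-fold lower against a floor of 3 counts over the group. Isg15, an interferon-induced ubiquitin-like modifier chosen after its values were seen, was at 2.02, 4.59 and 4.03 CPM with the combination and at 45.2, 11.9 and 20 CPM in non-treated cells, against 127, 55.7 and 144 CPM with MSU alone, and its log2 fold change of -2.85 was -2.17 without non-treated replicate 1.

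The 54 returned genes had a median log2 fold change of -0.00333 with the combination and 1.2 with MSU alone. This class rests on TMM factors and on the 2-fold limit. With library totals 5 of the 54 stayed returned, and with a 1.5-fold limit 6 did. Intervals below are those with TMM factors. Nlrp3, the sensor of the inflammasome that MSU engages, was at 26.9, 37.5 and 18.1 CPM with the combination, at 123, 182 and 128 CPM with MSU alone and at 30.9, 29.9 and 22.6 CPM in non-treated cells. The combination and non-treated libraries overlapped, and the 95% interval of their log2 difference ran from -0.78 to 0.74. Ifrd1, a transcriptional co-regulator, was at 42.2, 44.5 and 68.7 CPM with the combination, at 276, 370 and 443 CPM with MSU alone and at 53.7, 54.2 and 72.6 CPM in non-treated cells, with an interval of -0.69 to 0.26. Rps6ka2, a ribosomal S6 kinase gene, was at 13, 12.7 and 13.9 CPM with the combination and at 13.9, 14 and 10.4 CPM in non-treated cells, with 82.8, 85.5 and 117 CPM under MSU alone. Cd40, the costimulatory receptor gene, had an interval of -0.94 to 0.88 for the combination against non-treated cells, close to the 2-fold limit on both sides. Plpp3, Phlpp1, Uap1 and Tmem132a completed the 8 returned genes with the strongest MSU response, and in each the combination and non-treated libraries overlapped.

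**Figure D2:**
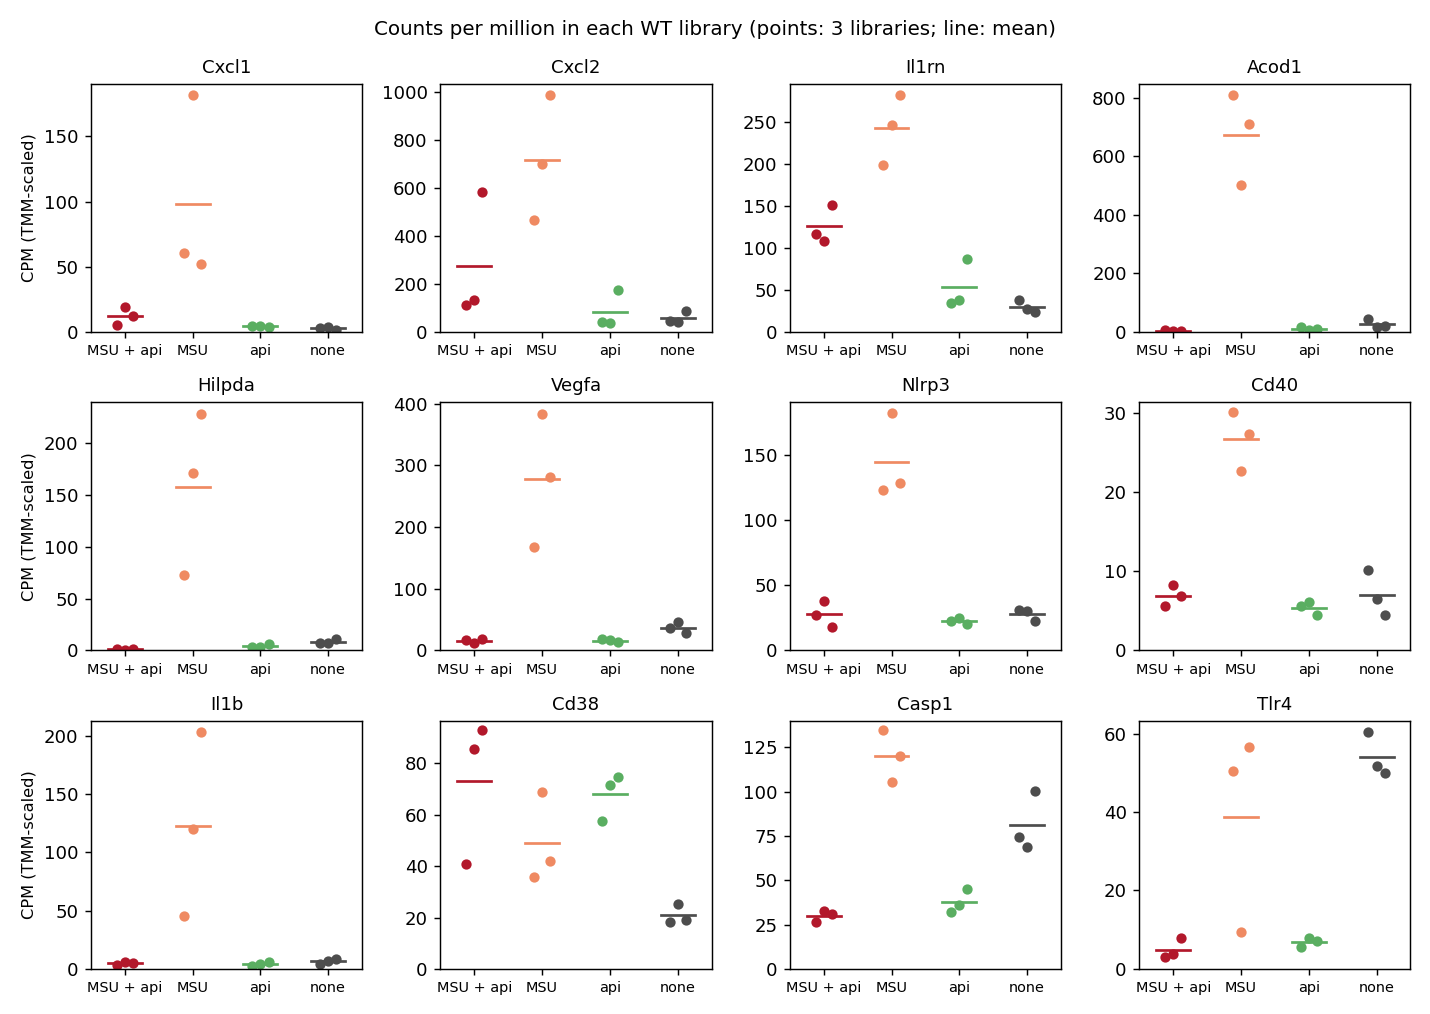
Each panel shows 1 gene in CPM on a linear axis from 0, with a point per library, a line at the group mean and the groups from left to right WT + MSU + apigenin, WT + MSU, WT + apigenin and WT non-treated. Cxcl1 and Il1rn lie between the MSU and the non-treated levels with the combination, Acod1, Hilpda and Vegfa lie below the non-treated level, and Nlrp3 and Cd40 overlap it.

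The undecided class held several of the most MSU-responsive genes, and for these the data fix the direction of the change from MSU better than the distance from rest. Il1b, which encodes IL-1β, was at 3.42, 5.71 and 4.71 CPM with the combination, at 45.8, 120 and 203 CPM with MSU alone and at 4.55, 6.84 and 8.59 CPM in non-treated cells. The combination and non-treated libraries overlapped, with a log2 difference of -0.53 ± 0.61 and an interval of -1.84 to 0.78. Il6 was at 0.619, 0.249 and 0.292 CPM with the combination and at 0.24, 0.192 and 0 CPM in non-treated cells, against 19.1, 58 and 11.9 CPM with MSU alone, and its interval of -1.42 to 4.20 reached a large rise. Steap4, a metalloreductase gene, was at 0, 0.395 and 0 CPM with the combination and at 0.0481, 0.0809 and 0 CPM in non-treated cells, against 9.01, 22.3 and 5.44 CPM with MSU alone. Olr1, the oxidised LDL receptor gene, was at 0.78, 0.478 and 0.661 CPM with the combination and at 1.38, 1.69 and 0.545 CPM in non-treated cells, with an interval of -1.95 to 0.12 that reached well below rest. Lif, Ereg and Rasd2 had log2 differences of -0.03 ± 0.61, -0.79 ± 1.05 and 0.19 ± 1.45, and Ccl20, Nr4a3 and Gem of 1.32 ± 1.26, 1.16 ± 0.79 and 1.68 ± 0.88, none of them called. Sod2, the mitochondrial superoxide dismutase gene, was at 166, 274 and 274 CPM with the combination and at 135, 96.7 and 176 CPM in non-treated cells, a difference of 0.81 ± 0.27 (adjusted p = 0.0214) that stayed under 2-fold. Ch25h, which makes 25-hydroxycholesterol and was not called with MSU alone, had a difference of -1.92 ± 0.86 (adjusted p = 0.072) although its groups did not overlap. Gpr176, an orphan receptor gene that MSU alone did not change by the test (adjusted p = 0.396), was at 23.8, 0.0415 and 0.486 CPM with the combination, at 0.582, 1.13 and 0.292 CPM with MSU alone and at 0.505, 36.3 and 0.186 CPM in non-treated cells. Combination replicate 1 and non-treated replicate 2 stood far above the rest of their groups, and the log2 difference of -0.61 ± 2.21 (adjusted p = 0.83) was -5.53 without combination replicate 1 and 4.54 without non-treated replicate 2.

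Class sizes moved with single libraries. Without non-treated replicate 1, 2 or 3, MSU alone raised 114, 118 and 163 genes, and the overshot class then held 22, 22 and 29 genes. Without WT + MSU replicate 2 or 3 it held 27 and 29. The left raised class held 13 and 12 genes without non-treated replicate 1 or 2, and the returned class held 30 and 33.

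Of the 186 genes that MSU alone lowered, the combination left 80 lowered (43%), against 24.4% of all genes called lower. A further 48 returned (25.8%), 5 overshot (2.69%, against 14.2% of all genes called higher) and 53 were undecided (28.5%). The left lowered genes had a median log2 fold change of -2.1 with the combination, -1.37 with MSU alone and -2.01 with apigenin alone, and 74 of the 80 were called lower with apigenin alone. The left lowered class held 40, 40 and 51 genes without non-treated replicate 1, 2 or 3 and 41, 27 and 40 without WT + MSU replicate 1, 2 or 3. Bmf, a pro-apoptotic BH3-only gene, was at 0.995, 0.249 and 0.525 CPM with the combination, at 4.36, 1.94 and 3.68 CPM with MSU alone and at 22.6, 22.8 and 28.9 CPM in non-treated cells (log2 fold change -5.40 ± 0.72, adjusted p = 2.78e-05, or -5.99 without combination replicate 1). Gpr34, a lysophosphatidylserine receptor gene, was at 0.619, 1.27 and 0.798 CPM with the combination and at 33.6, 52.2 and 11.1 CPM in non-treated cells (-5.17 ± 1.09, adjusted p = 0.00113). Abcd2, a peroxisomal fatty acid transporter gene, was at 3.28, 2.01 and 3.4 CPM with the combination, close to the 2.62, 2.53 and 3.93 CPM with MSU alone, and at 18.1, 19.7 and 25 CPM in non-treated cells.

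Few lowered genes went past the resting level in the other direction. H2-DMb2, which encodes a chain of the peptide-loading molecule H2-DM, was at 33.2, 31.1 and 32.6 CPM with the combination, at 2.56, 4.54 and 4.87 CPM with MSU alone and at 6.83, 7.74 and 13.7 CPM in non-treated cells (log2 fold change 1.78 ± 0.29, adjusted p = 0.000151). Abcd4, a lysosomal cobalamin transporter gene, was at 22.8, 23.4 and 21.9 CPM with the combination and at 10.7, 10.4 and 11 CPM in non-treated cells (1.08 ± 0.18, adjusted p = 0.000212). Among the returned genes, Pdk2, a kinase that restrains pyruvate dehydrogenase, was at 17.9, 19 and 11.2 CPM with the combination, at 5.22, 5.27 and 4.35 CPM with MSU alone and at 19.7, 19.7 and 14.2 CPM in non-treated cells. Sirt3, the mitochondrial NAD-dependent deacetylase gene, was at 11.2, 10.7 and 7.33 CPM with the combination, at 2.12, 2.88 and 2.39 CPM with MSU alone and at 5.45, 4.87 and 5.42 CPM in non-treated cells. Its combination libraries all lay above the non-treated ones, but the difference of 0.89 ± 0.30 (adjusted p = 0.0195) stayed under 2-fold, so Sirt3 was placed in neither class.

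The same sorting was run for genes that MSU changed in CD38KO macrophages, a set that does not use the WT non-treated libraries to choose its members. MSU called 183 genes higher (1.52%) and 58 lower (0.482%) there. Of the 183, the combination in WT cells left 31 raised (16.9%), 39 were below rest (21.3%), 28 lay within 2-fold (15.3%) and 85 were undecided (46.4%). Over all genes, 14.2% were higher, 24.4% lower and 21.3% within 2-fold. Of the 58 genes lowered in CD38KO macrophages, 23 were called lower with the combination in WT cells (39.7%), 17 lay within 2-fold (29.3%) and none was called higher, with 18 undecided.

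Few genes were called different between the combination and apigenin alone. The interval of that difference lay within 2-fold in 6645 of 12025 genes (55.3%), and the absence of a call in the others does not show equal levels. Among the 7 genes that edgeR called different between these groups, Fosb was higher with the combination (log2 fold change 2.58 ± 0.38, adjusted p = 0.0202). It was at 2.66, 3.3 and 2.28 CPM against 0.584, 0.271 and 0.522 CPM with apigenin alone. Dcun1d1, a neddylation factor gene, was at 13.5, 13.6 and 18.9 CPM with the combination, at 4.63, 3.83 and 3.98 CPM with apigenin alone and at 22.9, 22.6 and 31.2 CPM in non-treated cells. Tfam, the mitochondrial DNA packaging factor gene, was at 3.01, 3.12 and 3.83 CPM with the combination, at 5.99, 9.79 and 8.34 CPM with apigenin alone and at 20.9, 21.7 and 27.3 CPM in non-treated cells, and was thus lowest with both agents. Chac1, Slc24a5, Gm527 and Gm38560 were at 0 in every combination library and above 0 in every apigenin library. Against MSU alone, the combination called 2168 genes higher (18%) and 3107 lower (25.8%).

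Of the 10 largest rises among called genes whose groups did not overlap and whose highest group mean reached 5 CPM, 7 were in non-coding transcripts and 3 in protein-coding genes. Genes with overlapping groups, such as Csf2, are outside this ranking. 2900060B14Rik, an antisense transcript, was at 14.7, 13.5 and 13.3 CPM with the combination and at 0.012, 0 and 0 CPM in non-treated cells. Gm26917, a lincRNA on chromosome 17, was at 342, 506 and 962 CPM with the combination and at 32.1, 28.9 and 20.6 CPM in non-treated cells (log2 fold change 4.47 ± 0.57, adjusted p = 1.96e-05). Its neighbour AY036118 was at 2474, 716 and 23670 CPM with the combination and at 642, 213 and 493 CPM in non-treated cells, so that 1 library carried most of the difference. Rn7s1, a copy of the 7S RNA of the signal recognition particle, was likewise at 16.8, 1.5 and 101 CPM with the combination and at 1.25, 0.405 and 0.742 CPM in non-treated cells, and Gm23935 and Gm24270 were also highest in combination replicate 3. Without that library the log2 fold changes of AY036118, Rn7s1, Gm23935 and Gm24270 were 1.83, 3.52, 2.56 and 2.68, where they had been 4.32, 5.64, 5.25 and 4.54. Aarsd1 (28, 32.4 and 1.54 CPM with the combination, 1.06, 0.658 and 0.325 CPM in non-treated cells) lost its call without any 1 of the non-treated libraries (adjusted p = 0.0503 to 0.0705). Among protein-coding genes, Cdh1, which encodes E-cadherin, was at 32.6, 45.4 and 19.2 CPM with the combination and at 2.81, 2.64 and 0.997 CPM in non-treated cells (3.91 ± 0.67, adjusted p = 0.000221), and the immediate early gene Arc at 3.39, 9.95 and 18.2 CPM with the combination and at 0.553, 0.89 and 1.02 CPM in non-treated cells (3.68 ± 0.78, adjusted p = 0.00119, or 3.02 without combination replicate 3).

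The deepest falls by log2 fold change were at genes counted at or near 0 in the combination libraries, several of them zinc finger genes. Trex1, the cytosolic DNA exonuclease gene, was at 0, 0.561 and 0 CPM with the combination, at 103, 22.8 and 97.1 CPM with MSU alone and at 58.1, 32.6 and 50.2 CPM in non-treated cells (log2 fold change -7.91 ± 1.12, adjusted p = 4.46e-05). Pus3, a tRNA pseudouridine synthase gene, was at 0 in every combination library and at 5.05, 5.92 and 4.36 CPM in non-treated cells, at least 233-fold lower. Zfp456 was at 0 with the combination and at 7.2, 6.73 and 2.97 CPM in non-treated cells, at least 257-fold lower. Zfp626, Zfp955a and 2010008C14Rik were each at 0 in 2 of the 3 combination libraries and above 4 CPM in every non-treated library, as were Ttc30b, Gm15513 and Mfsd9. Gm20521 was at 0 in every combination and every WT + MSU library and at 10.7, 7.8 and 9.97 CPM in non-treated cells. Its mean with apigenin alone was 8.32 CPM. The adjusted p of 0.0481 for the combination became 0.0682 to 0.0997 without any 1 of the 6 libraries compared. Why such genes had no counts was not tested. Fitted log2 fold changes at such levels rest on few counts and are no bounds, and that of Trex1 was -14.7 without combination replicate 2, the only combination library above 0.

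Genes called higher and genes called lower with TMM factors differed in structure and in annotation. Protein-coding genes made up 67.9% of the first and 95.9% of the second, so length and annotation were mixed. With library totals 152 of the 1711 genes called higher stayed called. The median summed exon length was 1860 bases in genes called higher, 4720 bases in genes called lower and 3760 bases over all genes tested. Single-exon genes made up 31.1% of the genes called higher, 5.52% of those called lower and 13.3% of all. By annotation, 435 of 1131 processed pseudogenes were higher (38.5%) and 34 lower (3.01%), while 1162 of 10297 protein-coding genes were higher (11.3%) and 2814 lower (27.3%). Reads of processed pseudogenes can come from their parent genes, so these counts are uncertain. Of 22 mitochondrial tRNA genes, 16 were higher and 0 lower.

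Receptors and adaptors of innate sensing fell. The counts of each gene list stand against 14.2% higher and 24.4% lower over all genes. Of 19 Toll-like receptor pathway genes tested, 12 fell and 0 rose, with a median log2 fold change of -2.08, against -0.0484 over all genes, and with MSU alone 1 rose. Tlr4, the lipopolysaccharide receptor gene, was at 3.07, 3.72 and 7.88 CPM with the combination and at 60.4, 51.8 and 50.1 CPM in non-treated cells (log2 fold change -3.47 ± 0.52, adjusted p = 7.54e-05). Tlr2, which senses bacterial lipopeptides, was at 14, 16.2 and 62.7 CPM with the combination and at 408, 296 and 218 CPM in non-treated cells, and Ticam2, the adaptor TRAM, at 3.42, 3.65 and 3.02 CPM with the combination and at 88.5, 77.6 and 54.3 CPM in non-treated cells. The groups did not overlap in any of these, and combination replicate 3 was nearest to rest in Tlr2, whose log2 fold change of -3.31 was -4.35 without it. Of 20 genes for NF-κB subunits, inhibitors and targets, 6 fell and 0 rose (median -0.418), where MSU alone raised 6. The share that fell was near the 24.4% of all genes called lower. Rel, the c-Rel subunit, was at 3.44, 4.74 and 12.3 CPM with the combination and at 49.4, 46.7 and 40.8 CPM in non-treated cells (-2.74 ± 0.44, adjusted p = 0.00014, or -3.48 without combination replicate 3). The inhibitor gene Nfkbie and the target genes Tnip3 and Birc3 had log2 fold changes of -2.10 ± 0.38, -2.66 ± 0.41 and -2.10 ± 0.36.

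Casp1 and 3 other inflammasome genes fell. Of 15 tested, 4 fell and 0 rose (median -0.731), a share near the 24.4% of all genes called lower, and 4 of the others had intervals within 2-fold of rest. Casp1, the protease that matures IL-1β, was at 26.7, 32.4 and 30.7 CPM with the combination, at 135, 106 and 120 CPM with MSU alone and at 74.5, 68.5 and 100 CPM in non-treated cells (log2 fold change -1.44 ± 0.19, adjusted p = 2.2e-05). Nlrc4, the flagellin-responsive sensor gene, was at 2.31, 3.92 and 2.8 CPM with the combination and at 15.6, 16.1 and 15.5 CPM in non-treated cells. Mefv (pyrin) and P2rx7 (an ATP-gated channel) were called with adjusted p = 0.044 and 0.0162, and both lost their calls without single libraries. For Mefv these were combination replicates 1 and 2, WT + MSU replicate 1 and non-treated replicate 3 (adjusted p = 0.0527 to 0.231), and for P2rx7 combination replicates 1 and 3 and non-treated replicate 2 (0.0524 to 0.0609). Of 27 interferon-stimulated genes, 12 fell and 2 rose (median -1.11). Ifit1 was at 4.2, 5.57 and 2.86 CPM with the combination, at 323, 144 and 250 CPM with MSU alone and at 137, 43.4 and 26.7 CPM in non-treated cells (-4.03 ± 0.89, adjusted p = 0.00152). Ifit3 and Cmpk2 had log2 fold changes of -3.61 ± 0.71 and -3.36 ± 0.80, and Ifit2 (-3.84 ± 1.24) had overlapping groups, with 1 non-treated library at 3.79 CPM. Non-treated replicate 1 was the highest for these genes, and without it the log2 fold changes were -3.06 for Ifit1, -2.80 for Ifit3, -2.53 for Cmpk2 and -1.84 for Ifit2, the last with adjusted p = 0.173. Ifit2 also lost its call without combination replicate 1 (adjusted p = 0.0591).

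Cytokine and chemokine genes did not move together. Of 22 chemokine genes, 9 rose and 1 fell (median 1.31), and with library totals 3 rose and 3 fell (median 0.498). Ccl12, which recruits monocytes, was at 62.2, 97.9 and 42.4 CPM with the combination and at 14.2, 7.03 and 1.89 CPM in non-treated cells (log2 fold change 3.13 ± 0.67, adjusted p = 0.0013, or 3.92 without non-treated replicate 1), and apigenin alone gave a similar range of 29.9 to 86.1 CPM. The exception was Cxcl10, which recruits T cells, at 17.6, 12.8 and 18.4 CPM with the combination and at 189, 50.2 and 37.9 CPM in non-treated cells (-2.51 ± 0.84, adjusted p = 0.0208), a call lost without combination replicate 1 or 2 (adjusted p = 0.0532 and 0.0656) or non-treated replicate 1 (0.154). Of 14 cytokine genes, 3 rose and 2 fell, and with library totals 2 rose and 3 fell, with medians of 0.407 and -0.416. Il10, the anti-inflammatory cytokine gene, was at 0 in every combination library and at 1.86, 0.991 and 1.01 CPM in non-treated cells, at least 58.7-fold lower. Tnf, chosen after its values were seen, was at 14.7, 46.2 and 240 CPM with the combination and at 39.8, 31.8 and 42 CPM in non-treated cells, with both the lowest and the highest value in the combination group (log2 difference 1.40, adjusted p = 0.135, or -0.31 without combination replicate 3).

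The early response was split. Of 29 early response genes, 11 fell and 3 rose (median -0.94), where MSU alone raised 9. Dusp6, the ERK phosphatase gene, was at 1.69, 3.82 and 1.93 CPM with the combination and at 38.9, 46.2 and 23.6 CPM in non-treated cells (log2 fold change -3.87 ± 0.48, adjusted p = 1.48e-05). The Krüppel-like factor genes Klf6, Klf2 and Klf4 had log2 fold changes of -3.19 ± 0.66, -3.10 ± 0.54 and -2.83 ± 0.40 with no overlap, and those of Klf6 and Klf2 were -4.58 and -4.14 without combination replicate 3. Against these, Egr1 (chosen after its values were seen) was at 70.5, 196 and 300 CPM with the combination, at 34.2, 31.9 and 60 CPM with apigenin alone and at 40.1, 54.3 and 47.2 CPM in non-treated cells (2.00 ± 0.44, adjusted p = 0.00145). Fosb, Nr4a1 and Egr1 were not higher with apigenin alone, so under the treatment tags, which swap the 2 apigenin groups, their direction turned. Of 16 heat shock chaperone genes, 7 rose and 3 fell (median 0.902), and with library totals 0 rose and 4 fell (median 0.101). The constitutive chaperone gene Hspa8 was at 2549, 2262 and 2809 CPM with the combination and at 1059, 629 and 975 CPM in non-treated cells, while the co-chaperone genes Bag3 and Dnajb1 had log2 fold changes of -2.40 ± 0.16 and -2.02 ± 0.32.

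Single genes of cell survival and the cell cycle fell, although the shares called lower in the ATF4 and cell cycle lists were below the 24.4% of all genes. Of 16 BCL2 family genes, 5 fell and 0 rose (median -0.404), a share called lower that was near that of all genes. Mcl1, an anti-apoptotic member, was at 45.8, 57.5 and 176 CPM with the combination and at 798, 748 and 930 CPM in non-treated cells (log2 fold change -3.15 ± 0.47, adjusted p = 7.34e-05), and the anti-apoptotic Bcl2l1 and pro-apoptotic Bcl2l11 had log2 fold changes of -2.21 ± 0.34 and -2.89 ± 0.36. Of 15 p53 target genes, 6 fell and 0 rose (median -0.987). Mdm2, the p53 ubiquitin ligase gene, was at 7.85, 6.23 and 49.3 CPM with the combination, at 334, 413 and 448 CPM with MSU alone and at 130, 135 and 136 CPM in non-treated cells. Without combination replicate 3 the log2 fold changes of Mcl1 and Mdm2 were -4.00 and -4.24, where they had been -3.15 and -2.66. Sesn1, a stress sensor of the mTOR pathway, fell by 3.32 ± 0.46 on the log2 scale and was also lowered by MSU alone. Of 20 ATF4 stress genes 3 fell and 0 rose, led by Chac1 and the pseudokinase gene Trib3 (0, 0.208 and 1.09 CPM with the combination, 5.94, 5.52 and 11.1 CPM in non-treated cells). Of 28 cell cycle genes 6 fell and 0 rose, and their median of 0.127 became -0.679 with library totals. Ccne2, which encodes cyclin E2, was at 0.135, 0.208 and 0 CPM with the combination and at 6.49, 5.76 and 4.33 CPM in non-treated cells, and the mitotic kinase gene Plk1 fell by 2.65 ± 0.53 on the log2 scale.

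**Figure D3:**
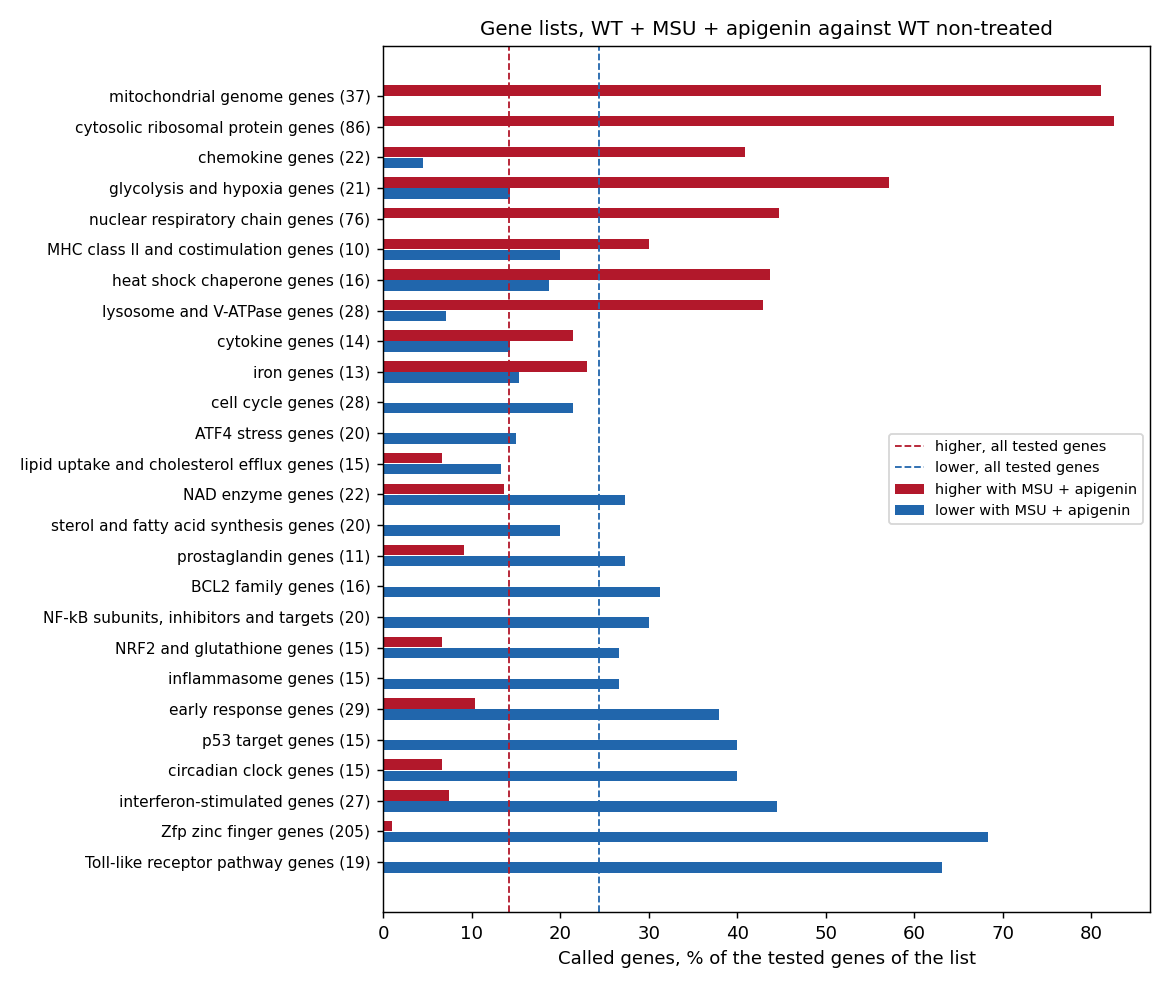
For each list of 10 or more tested genes, the share of tested members called higher and lower in WT + MSU + apigenin against WT non-treated is drawn as bars in percent, beside the shares over all 12025 genes. Ribosomal protein and mitochondrial genome genes have no member called lower, and the Toll-like receptor list has 12 of 19 called lower.

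Genes of protein synthesis and energy metabolism were higher with TMM factors, and only those of the mitochondrial genome remained so with library totals. Of 86 ribosomal protein genes, 71 were called higher and 0 lower, with a median log2 fold change of 1.35 with TMM factors, while with library totals the median was 0.561, 0 were called higher and 1 lower. Of 37 genes of the mitochondrial genome, 30 were higher and 0 lower (median 1.89), and 17 stayed called higher with library totals (median 1.09). mt-Atp6, a subunit of ATP synthase, was at 12200, 11950 and 14560 CPM with the combination and at 906, 3658 and 802 CPM in non-treated cells (2.85 ± 0.69, adjusted p = 0.00297, or 3.92 without non-treated replicate 2). Of 76 nuclear respiratory chain genes, 34 were higher and 0 lower (median 0.958), among them Cox8a at 306, 299 and 291 CPM with the combination and at 83.8, 79.5 and 99.2 CPM in non-treated cells. With library totals none of the 76 was called, 0 higher and 0 lower (median 0.157). Of 21 glycolysis and hypoxia genes, 12 were higher and 3 lower (median 1.23), and with library totals 0 were higher and 4 lower (median 0.437). Gpi1 was at 1312, 1447 and 1495 CPM with the combination and at 382, 412 and 453 CPM in non-treated cells, and Eno1 had a log2 fold change of 1.75 ± 0.19. Hk2, the inducible hexokinase gene that opens the pathway, went the other way, at 8.55, 7.27 and 16.4 CPM with the combination, 81.3, 138 and 125 CPM with MSU alone and 34, 39 and 42.9 CPM in non-treated cells.

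**Figure D4:**
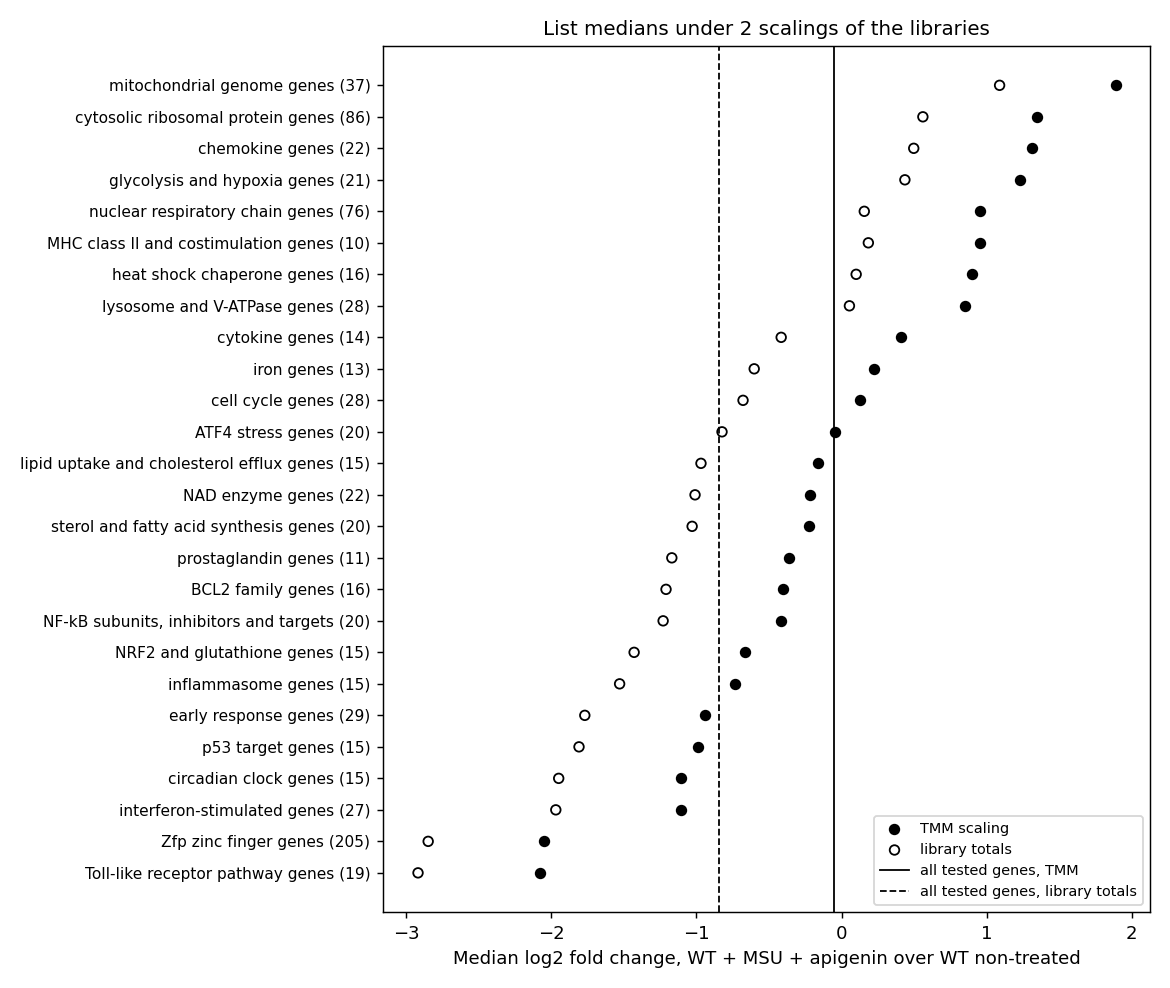
For each list of 10 or more tested genes, the median log2 fold change in WT + MSU + apigenin against WT non-treated is drawn with TMM factors (filled) and with library totals (open). All medians moved down with library totals, and those of the cytokine, iron and cell cycle lists crossed 0.

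Lysosomal and iron-handling genes were called in both directions. Of 28 lysosome and V-ATPase genes, 12 were higher and 2 lower (median 0.852), while with library totals 0 were higher and 7 lower (median 0.0546). Ctsb, which encodes the protease cathepsin B, was at 26490, 19680 and 21310 CPM with the combination and at 8316, 8152 and 8687 CPM in non-treated cells (log2 fold change 1.42 ± 0.19, adjusted p = 2.22e-05). Tfeb, the transcription factor that drives lysosomal genes, was at 5.33, 3.94 and 5.41 CPM with the combination and at 27.6, 49.6 and 39.4 CPM in non-treated cells (-2.99 ± 0.33, adjusted p = 5.38e-06). Of 13 iron genes, 3 were higher and 2 lower (median 0.224), and with library totals 0 were higher and 5 lower (median -0.602). Ftl1, a ferritin chain gene, was at 14180, 12330 and 17920 CPM with the combination and at 4383, 3957 and 7459 CPM in non-treated cells, while Slc40a1, the iron exporter ferroportin, was at 29.7, 10.3 and 39.8 CPM with the combination and at 214, 226 and 357 CPM in non-treated cells.

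Lipid and sterol genes were called lower at shares below that of all genes (24.4%). Of 20 sterol and fatty acid synthesis genes, 4 fell and 0 rose. Hmgcs1, which condenses the first sterol precursor, was at 5.62, 6.44 and 2.49 CPM with the combination and at 109, 45.7 and 78.9 CPM in non-treated cells (log2 fold change -4.01 ± 0.56, adjusted p = 4.05e-05). Of 15 lipid uptake and cholesterol efflux genes, 2 fell and 1 rose. Plin2, a lipid droplet coat protein gene, was at 102, 73.9 and 142 CPM with the combination, at 946, 632 and 1192 CPM with MSU alone and at 333, 361 and 594 CPM in non-treated cells. The gene that rose, the scavenger receptor gene Msr1 (1.39 ± 0.40), lost its call without combination replicate 3 (0.85, adjusted p = 0.0673). Of 15 NRF2 and glutathione genes, 4 fell and 1 rose (median -0.662), where MSU alone raised 7. The 11 prostaglandin genes held 3 that fell, among them the PGE2 receptor gene Ptger2 at 0.645, 0 and 0.701 CPM with the combination and 7.52, 8.96 and 21.6 CPM in non-treated cells, and 1 that rose, the thromboxane synthase gene Tbxas1 (1.17 ± 0.26).

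Cd38, whose enzyme apigenin is known to inhibit, was higher with the combination. Of 22 NAD enzyme genes, 6 fell and 3 rose (median -0.214), shares near the 24.4% and 14.2% of all genes, and with library totals 11 fell and 0 rose. Cd38 itself was at 40.8, 85.6 and 93 CPM with the combination, at 36, 69 and 41.9 CPM with MSU alone, at 57.6, 71.5 and 74.8 CPM with apigenin alone and at 18.4, 25.4 and 19.1 CPM in non-treated cells. It was higher with the combination than in non-treated cells in every library (log2 fold change 1.80 ± 0.36, adjusted p = 0.000797), and with library totals the value was 0.98 with adjusted p = 0.0312, under the 2-fold limit. Bst1, the other ADP-ribosyl cyclase gene of this family (chosen after its values were seen), was at 79.8, 60 and 60.9 CPM with the combination and at 23.4, 21 and 19.7 CPM in non-treated cells (1.65 ± 0.13, adjusted p = 6.07e-07). Sirt1, a nuclear NAD-dependent deacetylase gene, was at 1.77, 5.09 and 7.32 CPM with the combination and at 21.9, 25.4 and 27.8 CPM in non-treated cells (-2.40 ± 0.72, adjusted p = 0.0114). Nmnat1, the nuclear NAD synthase gene, had a log2 fold change of -2.86 ± 0.53, and the ADP-ribosyltransferase genes Parp14 and Parp9 of -2.40 ± 0.49 and -2.39 ± 0.43, with no overlap in any.

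Several transcriptional regulators fell. Of 15 circadian clock genes, 6 fell and 1 rose (median -1.11). Nr1d2, a clock repressor, was at 10.7, 7.06 and 10.6 CPM with the combination and at 56.2, 63.9 and 61.4 CPM in non-treated cells (log2 fold change -2.68 ± 0.26, adjusted p = 1.85e-06), and Cry2 and Bhlhe41 had log2 fold changes of -2.61 ± 0.32 and -3.33 ± 0.57, the second -4.20 without combination replicate 3. Of 5 genes of the aryl hydrocarbon receptor pathway, 2 fell, the repressor gene Ahrr (-2.94 ± 0.40) and Ahr itself (-1.29 ± 0.47), the second a call that was lost without any 1 of the combination libraries (adjusted p = 0.0556 to 0.095) or non-treated replicate 1 or 2. Of 10 MHC class II and costimulation genes, 3 rose and 2 fell, and with library totals 0 rose and 2 fell. Cd74, the invariant chain, was at 3690, 3430 and 2531 CPM with the combination and at 1017, 831 and 1657 CPM in non-treated cells (1.46 ± 0.38, adjusted p = 0.00459), while Ciita, the transactivator of class II genes, was at 1.69, 0.498 and 0.739 CPM with the combination and at 16.7, 8.55 and 21.8 CPM in non-treated cells (-4.01 ± 0.64, adjusted p = 0.000127, or -4.66 without combination replicate 1). Of 205 genes named Zfp, 140 fell and 2 rose (median -2.05, or -2.85 with library totals), where MSU alone called 1 lower. Among the macrophage markers, 4 of 8 were higher and 0 lower with the combination (0 and 0 with library totals), and Itgam, called at adjusted p = 0.0356, had overlapping groups at 757, 2005 and 2853 CPM with the combination and 691, 274 and 948 CPM in non-treated cells, and lost its call without combination replicate 2 or 3 or non-treated replicate 1 or 2 (adjusted p = 0.0701 to 0.145).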

How the data were processed

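RNA-seq counts per gene and FPKM values for 18 libraries were deposited by the authors, who trimmed reads with cutadapt, checked them with FastQC, mapped them with HISAT2, quantified them with StringTie and used edgeR. They mapped to a build not given in the sources used here. Of the gene IDs, 55450 of 55450 matched GENCODE M21 (GRCm38). A second deposited file holds the authors' own log2 ratios of group means and was not used. No column was left without a sample (0 unassigned).

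Testing covered genes reaching 1 FPKM in 3 or more libraries and used the deposited counts in edgeR 4.0.16 (R 4.3.3), TMM factors, 1 fit over all 6 groups and Benjamini-Hochberg adjustment over 12025 genes. limma 3.58.1 on log2(FPKM + 0.5) and DESeq2 1.42.0 were alternatives, with other filters, scalings, thresholds and libraries left out. Scripts were tested on simulated data.

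Named genes were drawn from the 10 highest and 10 lowest log2 fold changes among called genes whose libraries do not overlap and whose highest group mean reached 5 CPM, the strongest MSU responders of each class (8 raised, 5 lowered), genes the study names and up to 4 called genes of each list with the largest change. Genes said to be chosen after their values were seen fall outside this rule, as do Xist, Ifi202b, Ngp, Mpo, Col1a1, Nnt and genes that differ from apigenin alone. Members and lists were chosen with earlier results of these data known. RefSeq promoter windows (GRCm38.p6) were matched by symbol.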

Additional observations from a re-analysis of the deposited data

Results flagged for a closer look

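The response to MSU was compared between cells with and without apigenin by the interaction term of the edgeR fit. Of 12025 genes, 43 had an MSU effect that was higher with apigenin than without it, and 83 had one that was lower, at an adjusted p under 0.05 and a difference of at least 2-fold. Without the fold limit 157 genes passed, and 1701 had an unadjusted p under 0.05. Genes that MSU alone had raised were among the 83, with 5 of the 23 left raised, 16 of the 64 overshot, 23 of the 54 returned and 21 of the 103 undecided genes. The classes and the interaction term use the same WT + MSU and WT non-treated libraries, and few genes were called between the combination and apigenin alone. Genes picked as raised by MSU alone therefore lean to a lower interaction value, and genes picked as lowered to a higher one. These counts follow in part from that choice and are no separate evidence. Hilpda (-5.96, adjusted p = 0.0013), Ifrd1 (-2.88, adjusted p = 0.0013), Olr1 (-4.97, adjusted p = 0.0051) and Il1b (-4.06, adjusted p = 0.041) had lower MSU effects with apigenin on the log2 scale. Gpr155 (2.58, adjusted p = 0.025) and Gm13710 (2.67, adjusted p = 0.0079) had higher ones.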

How the results depend on the processing

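The numbers of higher and lower genes (1711 and 2934) became 152 and 4976 with library totals, 156 and 4449 with limma on log2(FPKM + 0.5), and 953 and 1697 among genes of at least 5 FPKM. They were 136 higher with limma on log2(FPKM + 1) and 2839 higher with no fold minimum. Leaving out 1 library gave 1404 to 1753 higher and 2692 to 2906 lower genes. For the MSU-raised genes, leaving out 1 library gave 12 to 30 left raised, 30 to 52 returned and 22 to 78 overshot, and for the MSU-lowered genes 27 to 84 left lowered, 30 to 46 returned and 1 to 5 overshot.

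With library totals the MSU-raised classes held 9 left raised and 23 returned genes, and the MSU-lowered classes held 136 left lowered, 29 returned and 1 overshot. DESeq2 gave 49 left raised, 99 raised overshot and 9 lowered overshot genes. limma with a pseudocount of 0.5 gave 7 left raised, 107 raised overshot, 143 left lowered, 31 lowered returned and 2 lowered overshot, and with a pseudocount of 1 it gave 5 left raised, 23 lowered returned and 1 lowered overshot. With no filter on low values 37 were raised overshot, 43 left lowered and 0 lowered overshot, and with at least 5 FPKM 3 were lowered overshot. An adjusted p under 0.01 gave 12 left raised, 32 returned, 18 overshot, 22 left lowered, 29 lowered returned and 1 lowered overshot. Intervals within 1.5-fold left 6 raised and 11 lowered genes returned. The 3 WT groups alone gave 2 lowered overshot. WT replicates 1 and 2 gave 44 left lowered. Replicates 1 and 3 gave 7 left raised, 6 returned, 4 overshot, 7 left lowered, 5 lowered returned and 0 lowered overshot, and replicates 2 and 3 gave 11, 13, 14, 15, 14 and 0. The causes of these shifts were not tested, apart from the fewer samples or genes that some settings hold.

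Grouping the apigenin libraries by their treatment tags gave 3 lowered overshot genes and turned the direction of Fosb (-0.75), Nr4a1 (-1.10), Hspa1a (-0.62) and Egr1 (-0.17). With the tags 1573 genes were higher and 2664 lower. Of the 23 left raised genes 13 kept their class, as did 56 of the 64 overshot and 45 of the 54 returned genes. No gene of the cytokine list, which holds Il1rn and Csf2, was then called higher. The labels share replicate numbers across groups, but the deviations of same-numbered combination and non-treated libraries correlated at 0.0275, 0.268 and 0.441, so by a minimum of 0.1 in every pair the numbers were not taken as pairs, and combination replicates 1 and 2 correlated best with another number. Replicate 3 nevertheless shared low Ifi202b, Ngp and Mpo in all 4 WT groups, and the labels do not say whether same-numbered libraries share an origin. The replicate 1 libraries differed in Xist, at 56.5 CPM with the combination, 67.4 with MSU alone, 0.073 with apigenin alone and 0 in non-treated cells. With a replicate block over the 12 WT libraries MSU alone raised 326 genes, against 193 in the same libraries with no replicate block. The block gave 1945 genes higher, 3047 lower, 33 left raised, 87 overshot and 83 returned, and without it 1696 were higher, 2845 lower, 17 left raised, 45 overshot, 59 returned and 48 left lowered.

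Of 172 named genes that were called, 27 lost the call when some 1 library was left out, 44 with library totals, 45 and 52 with limma, 2 with RLE factors and 1 with DESeq2. The part of sequencing depth was not tested. Some genes near or below 1 CPM, such as Il6 and Rasd2, had intervals several log2 units wide, while that of Olr1 was narrower.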
